A study of Mus musculus with 67 samples.

Results

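The retinas described here came from light-sensitive mice that lack Abca4 and Rdh8 (Abca4-/- Rdh8-/-) on the C57BL/6J background, and 4 libraries of the 1d group are set against 6 libraries of the NB group. The labels do not spell out NB or name the event from which 1d, 1 day, is counted. The series holds 67 samples of retina and of the retinal pigment epithelium (RPE), of which 33 are RNA libraries and 17 are retina RNA libraries. Members were chosen by column name alone, as every column that the deposited retina table names for 1d or for NB, and 16926 of its 16930 genes were tested. Each library was made from both eyes of 1 mouse, pooled, after the cornea, iris and lens had been cut away. Both groups carry the same knockouts, so no library here shows a retina with Abca4 and Rdh8 intact. The labels give no age or sex. Separate mice stand behind the libraries as far as the protocol says, and the labels do not place them in separate litters or days.

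ABCA4 is a transporter of photoreceptor outer segments that carries retinaldehyde out of the disc, and RDH8 reduces it to retinol, so both clear a reactive product of light absorption. Rods and cones make up the outer retina and signal through bipolar, horizontal and amacrine cells to ganglion cells, whose axons leave the eye. Müller glia span the whole thickness, recycle glutamate and, after injury, take up a reactive state known as gliosis, in which photoreceptor stress, cytokines of the interleukin-6 family and STAT3 are known to take part.

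Levels are CPM, read counts scaled to the effective library size the authors used, and are not divided by transcript length, so that they compare libraries and not genes. Fold changes are 1d over NB on log2(CPM + 0.5), with the standard error and the Benjamini-Hochberg adjusted p of limma over all 16926 genes, and a gene past an adjusted p of 0.05 is said to have risen or fallen. The 1d libraries held 9.45 to 11.3 M reads (M, 1e6 reads). The NB libraries called NB B1 to B4 here held 9.92 to 15.2 M, and NB A1 and A2 held 29.8 and 32.3 M. The first principal component took 39.1% of the variance of all 17 retina libraries and placed the 1d libraries at -48.6 to -23.7 and the NB libraries at 28.6 to 39.3. Lens crystallin genes were read in libraries of both groups, with a summed level of 11208, 1326, 131 and 7500.2 CPM in 1d 1 to 1d 4, against 223 to 7802 CPM in NB libraries, and 0 of 13 lens genes passed the test.

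In the 1d retinas 8719 of 16926 genes changed (51.5%), with 4057 higher (24%) and 4662 lower (27.5%) than in NB retinas, and 9620 had an unadjusted p under 0.05. The large changes were mostly rises. At least 2-fold, 606 genes were higher and 374 lower, at least 4-fold 152 were higher and 19 lower, and at least 16-fold 15 were higher and 0 lower. The 1d libraries stood all above every NB library for 16.3% of genes and all below for 18.1%, which is 34.4% in either direction. With library totals in place of the authors' scaling the median of all genes moved to 0.15 on the log2 scale, in place of -0.01, and of the genes then called 74.3% were higher, where the authors' scaling gave 46.5%. Where library totals moved a list count printed below by over 1.5 times, the count under them is given too. List counts are to be read beside the 24% of all genes that rose and the 27.5% that fell.

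**Figure D1:**
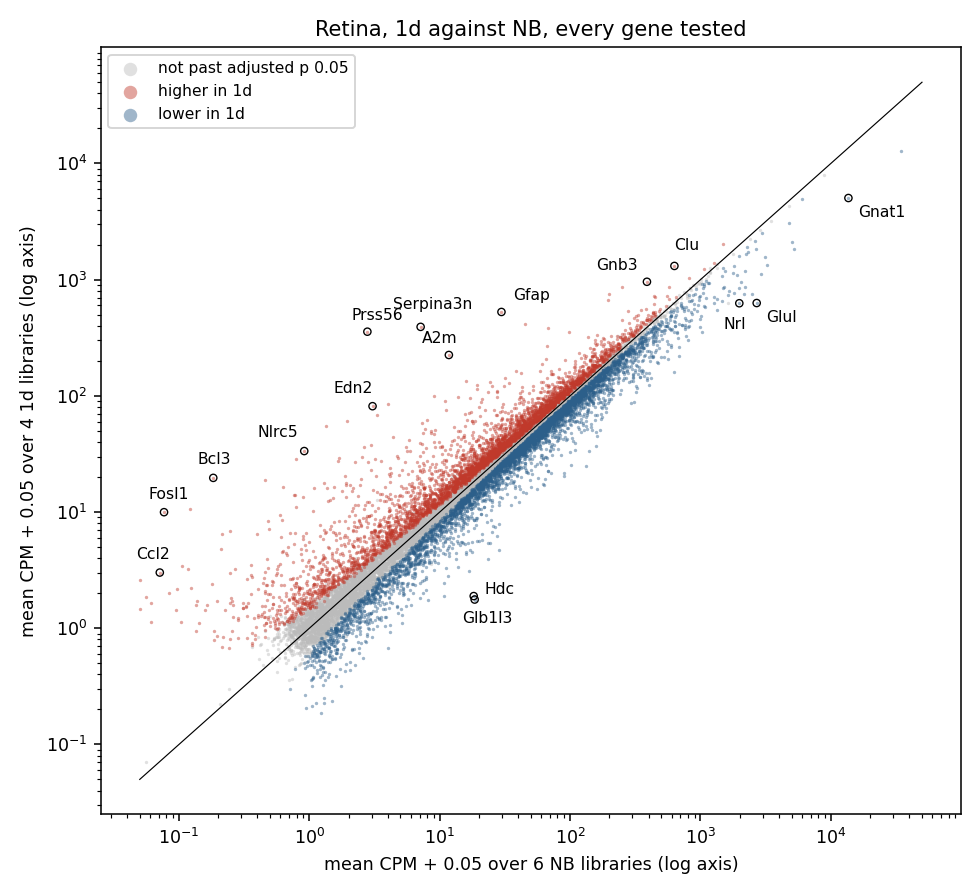
Mean CPM of every tested gene over the 4 1d libraries (y axis) and over the 6 NB libraries (x axis), both on log axes after adding 0.05, with 1 point a gene, red for higher in 1d, blue for lower and grey for genes that did not pass the test. The points far above the line include Prss56, Serpina3n, Edn2 and Bcl3, and Gnat1, Glul and Nrl lie below it.

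Among the largest falls in CPM were those of Gnat1, Gnb1, Prph2, Glul, Pde6a, Pde6b, Pdc, Sag and Grk1, photoreceptor genes apart from Glul, the glutamine synthetase of Müller glia. The 10 largest rises in CPM were those of Clu, a secreted chaperone, Agtpbp1, a deglutamylase of tubulin, Gnb3, a cone and bipolar transducin subunit, Cp, the copper-carrying ferroxidase, Eef1a1, a translation elongation factor, the filament genes Gfap and Vim, the protease inhibitor gene Serpina3n, Crym, a binder of thyroid hormone, and Prss56, a trypsin-like protease. Agtpbp1 was read at 795, 940.2, 880.5 and 855 CPM in 1d 1 to 1d 4, against 219 to 275 CPM (median 249.8) in NB. Crym stood at 441, 388, 376 and 468 CPM in 1d, against 33.7 to 54.7 CPM (median 48.3) in NB, so that for both genes every 1d library was above every NB library.

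Abca4, a target of the knockout, was still read in all libraries, at 359, 387, 448 and 357 CPM in 1d and 696 to 928 CPM (median 767) in NB, with a log2 fold change of -1.04 ± 0.08 (adjusted p = 1.65e-09). Rdh8, the other target, was at 29.5, 37.7, 44.6 and 38.9 CPM in 1d and 32.2 to 49.0 CPM (median 38.6) in NB, and did not pass the test (log2 fold change -0.10 ± 0.11). A 3' or undeleted stretch of a knocked-out gene can still be transcribed, and all libraries share the genotype, so these levels do not check it.

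All 21 genes of the rod phototransduction list fell in 1d retinas and 0 rose, with a median log2 fold change of -1.29, where 27.5% of all genes fell and the median of all genes was -0.01. Rod transducin, the G protein of the light response, fell in its 3 subunits. Its alpha subunit Gnat1 was at 3680.0, 5153, 6845 and 4485 CPM in 1d and 12307 to 14493 CPM (median 13595) in NB, its beta subunit Gnb1 changed by -1.54 ± 0.11 on the log2 scale and its gamma subunit Gngt1 by -1.53 ± 0.09 (adjusted p = 1.21e-10). The genes of the phosphodiesterase that transducin activates changed by -1.29 (Pde6a), -1.44 (Pde6b) and -1.37 (Pde6g), and those of the cyclic nucleotide-gated channel by -1.41 (Cnga1) and -1.10 (Cngb1). The exchanger gene Slc24a1, which removes calcium from the outer segment, changed by -1.26 ± 0.09. Genes that end the light response fell too, and less steeply for arrestin. Sag, rod arrestin, was at 2412, 3293, 3814 and 2848 CPM in 1d and 4152 to 5369.8 CPM (median 4750.5) in NB, a log2 fold change of -0.63 ± 0.11, the smallest fall of the list. Grk1, a kinase that shuts the response off, changed by -1.01, and Rgs9 and Rgs9bp, which speed the shut-off of transducin, by -1.23 and -1.33. Pdc, phosducin, a partner of the transducin beta and gamma subunits, had the steepest fall, with 557, 799, 967 and 700.0 CPM in 1d and 2279.6 to 2910.3 CPM (median 2374) in NB (log2 fold change -1.75 ± 0.11, adjusted p = 2.50e-10). The guanylate cyclase genes Gucy2e and Gucy2f changed by -0.86 and -1.49, and their activators Guca1a and Guca1b by -1.13 and -1.10. For each of the 21 genes all 4 1d libraries lay below all 6 NB libraries, which held for 18.1% of all genes. In bulk tissue fewer rods and less of these RNAs per rod cannot be told apart.

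The cone list split by gene: 7 of 11 fell, 3 rose and 1 did not pass the test, with a median of -0.71. The short-wave opsin gene Opn1sw was at 72.7, 121, 202 and 96.2 CPM in 1d and 302 to 461 CPM (median 417) in NB, a log2 fold change of -1.81 ± 0.18 (adjusted p = 8.26e-08), and 1d 3 was the highest of the 4. The middle-wave opsin gene Opn1mw was at 39.6, 59.8, 57.1 and 40.1 CPM in 1d and 105 to 164 CPM (median 115) in NB, with no overlap. Cone transducin alpha (Gnat2) and cone arrestin (Arr3) changed by -1.31 and -1.30. Against these, Gnb3, the beta subunit that cone transducin shares with ON bipolar cells, was at 896, 928, 1018 and 993 CPM in 1d and 353 to 420.3 CPM (median 391.6) in NB, and rose by 1.303 ± 0.05 (adjusted p = 4.19e-13). Its neighbour in the cascade, the cone phosphodiesterase gene Pde6c, was at 177, 169, 139.7 and 184 CPM in 1d and 103 to 138 CPM (median 116) in NB, with every 1d library above every NB library (0.51 ± 0.08). The cone channel gene Cnga3 rose by 0.44 ± 0.10, with 1 1d library inside the NB range. The partner channel gene Cngb3 fell by 0.72 on the log2 scale. The rises of Gnb3 and Pde6c and the falls of Opn1sw, Gnat2 and Arr3 had the same sign under library totals. That scaling moved the median of all genes only from -0.01 to 0.15, so changes of this size could not turn. Their sign under it is therefore no separate check.

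**Figure D2:**
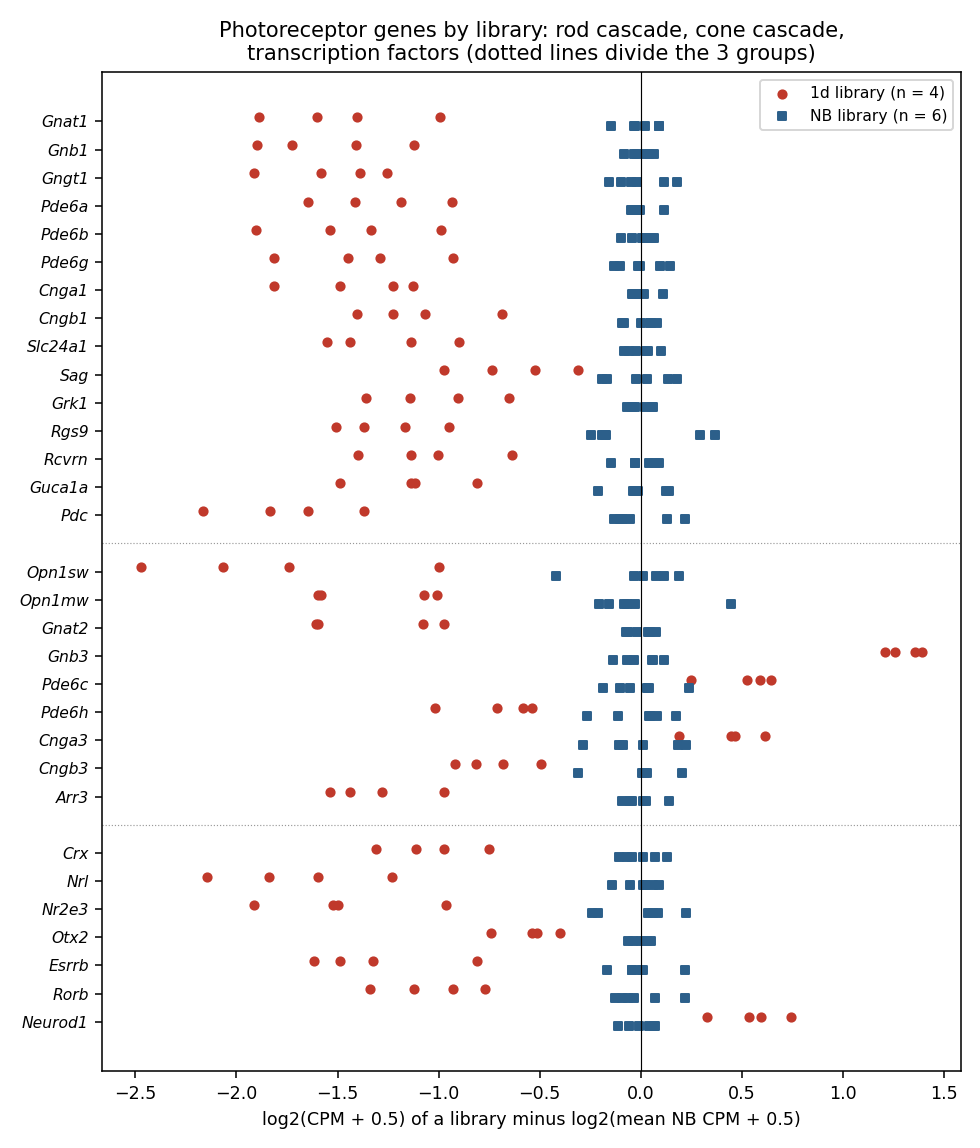
Photoreceptor genes by library, as log2(CPM + 0.5) minus the log2 of the mean NB level (x axis), with 1 row a gene, 1d libraries as red circles and NB libraries as blue squares. The 1d points of all rod genes lie left of the NB points, while those of Gnb3, Pde6c and Neurod1 lie to their right.

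Of 15 transcription factors of photoreceptors 11 fell, 2 rose and 2 did not pass the test. Nrl, which sets rod fate, was at 448, 657, 846 and 554 CPM in 1d and 1800.3 to 2115 CPM (median 2007) in NB (log2 fold change -1.70 ± 0.12, adjusted p = 6.38e-10). Its target Nr2e3, a repressor of cone genes in rods, changed by -1.47 ± 0.13, the nuclear receptor Esrrb by -1.30 ± 0.12, and Crx, the homeodomain factor shared by rods and cones, by -1.03 ± 0.08. Crx was at 515, 649, 759 and 590.4 CPM in 1d and 1183 to 1396 CPM (median 1263) in NB. Otx2, which acts before Crx in development and is also made by bipolar cells, fell less, by 0.55. Neurod1, a bHLH factor needed for photoreceptor survival in mice, went the other way, with 476, 573, 634 and 549.7 CPM in 1d and 349.8 to 397 CPM (median 383) in NB (0.55 ± 0.06, adjusted p = 5.75e-07). Mef2d rose by 0.19 ± 0.07 (0.36 under library totals), with 1d 1 inside the NB range, and its call was lost without 1d 3, NB B1 or NB B3 (adjusted p = 0.147, 0.0517 and 0.0596). Within the 1d group all 7 of these factor genes, like Gnat1, were highest in 1d 3 and lowest in 1d 1.

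The promoters of 3 of these genes are printed because the letters TAATCC, the core that CRX and OTX2 recognise, stand in them. Searched on both strands in the 300 bases around the start (250 before to 50 after), TAATCC was found in 8 of 14 rod phototransduction genes with a window (57.1%), in 5 of 15 photoreceptor transcription factors (33.3%) and in 6 of 17 photoreceptor synapse genes (35.3%), against 685 of 11626 tested genes with a window (5.89%). Other photoreceptor lists held it less often, in 3 of 18 outer segment genes (16.7%) and in 1 of 7 cone genes (14.3%). It was also found in 4 of 12 RPE markers (33.3%) and in 4 of 14 bipolar cell genes (28.6%), of which 2 of 15 and 9 of 19 tested genes fell. Lists below that mostly rose held it too, in 5 of 20 activated phagocyte genes (25%) and 2 of 8 guanylate-binding and IRG GTPase genes (25%). Among all genes called lower it was found in 229 of 3320 (6.90%), and among those called higher in 151 of 2988 (5.05%). A match describes letters and not binding. The windows are RefSeq sequence of build GRCm38.p6, 5′ to 3′ on the strand of the gene, with TAATCC or its reverse complement GGATTA in capitals. The window of Gngt1 is chr6:3993758-3994057 on the plus strand, that of Sag chr1:87803430-87803729 on the plus strand and that of Crx, which holds the letters 2 times, chr7:15879906-15880205 on the minus strand.
Gngt1: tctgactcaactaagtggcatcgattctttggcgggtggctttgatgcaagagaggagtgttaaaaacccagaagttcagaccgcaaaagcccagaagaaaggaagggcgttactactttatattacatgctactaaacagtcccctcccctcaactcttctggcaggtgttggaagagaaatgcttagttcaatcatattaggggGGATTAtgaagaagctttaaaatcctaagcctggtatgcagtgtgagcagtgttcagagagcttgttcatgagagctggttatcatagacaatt
Sag: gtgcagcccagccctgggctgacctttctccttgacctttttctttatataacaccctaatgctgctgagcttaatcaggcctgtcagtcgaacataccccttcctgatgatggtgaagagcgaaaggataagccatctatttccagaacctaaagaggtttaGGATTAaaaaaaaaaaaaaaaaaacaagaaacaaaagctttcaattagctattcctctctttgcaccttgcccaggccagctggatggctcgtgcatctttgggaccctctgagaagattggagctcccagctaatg
Crx: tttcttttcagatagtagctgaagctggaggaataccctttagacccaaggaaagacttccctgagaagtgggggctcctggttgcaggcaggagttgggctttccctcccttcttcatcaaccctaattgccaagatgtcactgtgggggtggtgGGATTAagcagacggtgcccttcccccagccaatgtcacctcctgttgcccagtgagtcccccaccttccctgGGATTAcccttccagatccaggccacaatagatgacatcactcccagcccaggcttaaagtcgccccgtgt

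Structural genes of the outer segment followed the rods: 18 of 21 fell, 1 rose and 2 did not pass the test. Prph2, the tetraspanin that shapes disc rims, was at 1692, 2268, 2711 and 1845 CPM in 1d and 4661 to 5302 CPM (median 5095) in NB (-1.26 ± 0.11, adjusted p = 8.90e-09). Its partner Rom1 changed by -1.11, the photoreceptor cadherin gene Cdhr1 by -1.07, and the ciliary genes Rpgrip1 and Fam161a by -1.18 and -1.34. Impg2, a proteoglycan of the matrix between photoreceptors, rose, with 635, 750.0, 757 and 672 CPM in 1d and 434 to 465 CPM (median 448) in NB (0.64 ± 0.06, adjusted p = 3.58e-08), while Impg1, the other proteoglycan of that matrix, fell by 0.60. Of 23 BBSome and intraflagellar transport genes, which move cargo along the cilium, 19 fell with a list median of -0.38, and 16 fell under library totals. Bbs9 changed by -1.10. The 2 that rose were Arl6, the GTPase that recruits the BBSome, at 199, 258, 243 and 228 CPM in 1d and 103 to 127 CPM (median 119) in NB (0.98 ± 0.07), and Ift57 (0.57 ± 0.06). At the photoreceptor synapse 15 of 21 genes fell and 1 rose, while under library totals 14 fell and 4 rose. Among the falls were the ribbon calcium channel gene Cacna1f (-0.92), the vesicular glutamate transporter gene Slc17a7 (-0.82) and Lrit2 (-0.88). The gene that rose was Cplx3, by 0.19 ± 0.06 (0.36 under library totals), a call lost without 1d 1 (adjusted p = 0.0623). The ribbon gene Ctbp2 stood at 256, 278, 301 and 256 CPM in 1d, against 250.6 to 286 CPM (median 262) in NB, and Bsn at 149.6, 169.6, 197 and 164 CPM in 1d, against 158 to 191 CPM (median 175) in NB, overlapping and not past the test.

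Among retinoid genes Rdh12, the inner segment retinol dehydrogenase, was at 151, 211, 249 and 173 CPM in 1d and 441 to 487 CPM (median 466.3) in NB (-1.26 ± 0.09, adjusted p = 1.02e-09), and Dhrs3, a retinaldehyde reductase gene, changed by -0.96 ± 0.08. Rbp3, the carrier between photoreceptors and RPE, stood at 4177, 3958, 5107 and 3869 CPM in 1d and 4200.4 to 5159 CPM (median 4818) in NB, overlapping. Of 10 members 6 fell and 2 rose, and 3 fell and 2 rose under library totals, while 1 rose when any 1 of NB A1, A2, B3 and B4, 1d 1 and 1d 3 was left out. Among 17 pumps and channels of photoreceptors, the rod potassium channel genes Kcnv2 and Kcnj14 changed by -1.43 ± 0.12 and -1.23 ± 0.10, and the flippase gene Atp8a2 by -0.99 ± 0.08.

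Lists of inner retina neurons had medians nearer 0. Of 19 bipolar cell genes 7 rose and 9 fell, beside 24% and 27.5% of all genes, and none changed by more than 1.01 on the log2 scale. The list median of -0.10 turned to 0.07 under library totals, where 8 rose and 4 fell. Prkca, a kinase of rod bipolar cells, changed by -0.37 ± 0.05. The list's largest change was the rise of Irx5, a homeodomain factor, with 11.1, 9.92, 8.55 and 8.86 CPM in 1d and 3.64 to 5.03 CPM (median 4.62) in NB (1.01 ± 0.10). Of 17 amacrine and horizontal cell genes 10 rose and 1 fell. Onecut2 changed by 0.74 ± 0.08, the GABA transporter gene Slc32a1 by 0.35 ± 0.06 and Calb1, calbindin, by -0.46 ± 0.07. Of 14 ganglion cell genes 7 rose and 1, Isl2, fell by 0.31, while 11 rose and 0 fell under library totals. The call of Isl2 was lost under library totals, DESeq2, the 1d and NB libraries alone, NB of the same depth set, the depth set as a term and the replicate block (adjusted p = 0.0544 to 0.209). The neurofilament gene Nefh changed by 0.48 ± 0.10. A pair of members known to be induced in injured ganglion cells stood apart from the rest of that list. Of these, Atf3 also belongs to the AP-1 and immediate early genes below, and in bulk tissue the cells that made either RNA cannot be told. The growth cone gene Gap43 was at 56.4, 58.2, 53.3 and 56.2 CPM in 1d and 24.5 to 28.1 CPM (median 27.0) in NB (1.06 ± 0.05, adjusted p = 4.31e-12). The stress factor gene Atf3 was at 42.7, 46.0, 41.6 and 46.8 CPM in 1d and 3.44 to 6.21 CPM (median 3.97) in NB (3.22 ± 0.13, adjusted p = 2.02e-13), and both had every 1d library above every NB library.

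Of 20 resting Müller glia genes 7 rose, 6 fell and 7 did not pass the test, beside 24% of all genes that rose and 27.5% that fell. Glul, which turns glutamate into glutamine, was the steepest fall, with 634, 651, 654 and 577 CPM in 1d and 2536 to 2812 CPM (median 2703) in NB (-2.10 ± 0.06, adjusted p = 2.57e-15). The 1d values lay close together, while rod genes spread over the same 4 libraries. Abca8a changed by -1.03 ± 0.06 and Spc25, a kinetochore gene that also marks Müller glia in single-cell data, by -1.70 ± 0.09. The glutamate transporter gene Slc1a3 and the potassium channel gene Kcnj10 rose, by 0.45 ± 0.05 and 0.48 ± 0.05. The factor genes Sox9 and Sox2 rose, by 0.92 ± 0.08 and 0.74 ± 0.09. The water channel gene Aqp4 stood at 134, 138, 125 and 141 CPM in 1d and 128 to 147 CPM (median 135) in NB and did not pass the test. Clu was at 1503, 1232, 1171 and 1342 CPM in 1d and 443 to 724 CPM (median 685) in NB (1.07 ± 0.14).

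Of 20 gliosis genes 18 rose and 0 fell, with a median log2 fold change of 2.05, where 24% of all genes rose. Gfap, the intermediate filament by which gliosis is usually recognised, was at 536, 522, 479 and 570.4 CPM in 1d and 25.8 to 33.1 CPM (median 29.4) in NB, 17.7-fold higher in the mean (4.13 ± 0.12, adjusted p = 4.98e-15). Vimentin (Vim) was at 805, 598, 562 and 682 CPM in 1d and 131 to 225 CPM (median 206) in NB (1.77 ± 0.17), and nestin (Nes) changed by 1.79 ± 0.10. The secreted protease inhibitor genes Serpina3n and A2m had the largest rises of the list. Serpina3n was at 482, 411, 289.9 and 386 CPM in 1d and 4.04 to 11.2 CPM (median 6.41) in NB (5.76 ± 0.22, adjusted p = 1.72e-13), and A2m at 257, 244, 188 and 209.6 CPM in 1d and 10.2 to 14.2 CPM (median 11.5) in NB (4.20 ± 0.12). The metalloreductase gene Steap4 was at 21.7, 15.5, 9.42 and 18.6 CPM in 1d and 0.299 to 0.794 CPM (median 0.552) in NB (3.92 ± 0.21). The hyaluronan receptor gene Cd44, the siderophore binder gene Lcn2 and the S100 gene S100a6 changed by 3.07, 3.13 and 2.93. Hspb1, at 5.59, 3.57, 4.80 and 4.06 CPM in 1d and 2.56 to 4.04 CPM (median 3.73) in NB, and Tm4sf1 did not pass the test.

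Prss56, a serine protease of Müller glia that is known to affect eye size, had the largest rise of all genes. It was at 454, 258, 253 and 461 CPM in 1d 1 to 1d 4 and at 2.11 to 3.35 CPM (median 2.77) in NB, 130.3-fold higher in the mean (6.74 ± 0.19, adjusted p = 2.12e-15). The 1d libraries fell into a higher pair, 1d 1 and 1d 4, and a lower pair. Of 15 proteases and inhibitors 13 rose and 0 fell. The inhibitor of matrix proteases Timp1 was at 11.1, 6.15, 6.72 and 10.1 CPM in 1d and 0.0918 to 1.07 CPM (median 0.595) in NB (3.0996 ± 0.22). Mmp12, a macrophage elastase, was at 5.41, 6.45, 4.01 and 3.23 CPM in 1d and 0.0332 to 0.275 CPM (median 0.157) in NB (2.97 ± 0.20), and Plau, the urokinase gene, changed by 2.36 ± 0.16. Adamts1 was at 108, 95.3, 112 and 122 CPM in 1d and 24.1 to 33.3 CPM (median 27.2) in NB (1.97 ± 0.08). The metalloprotease genes Mmp14 and Mmp2 changed by 1.504 ± 0.10 and 1.11 ± 0.09. Of 12 matrix genes 2 rose, fibronectin (Fn1, 0.82 ± 0.10) and tenascin C (Tnc, 0.52 ± 0.07), and 0 fell, with 1 lower without NB A2 or NB B3. Of all genes 24% rose and 27.5% fell. With the summed lens level as a covariate 5 matrix genes were higher. The matrix genes summed to 1355, 418, 445 and 966 CPM in 1d 1 to 1d 4, highest in 1d 1 and 1d 4, as the lens sum was.

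**Figure D3:**
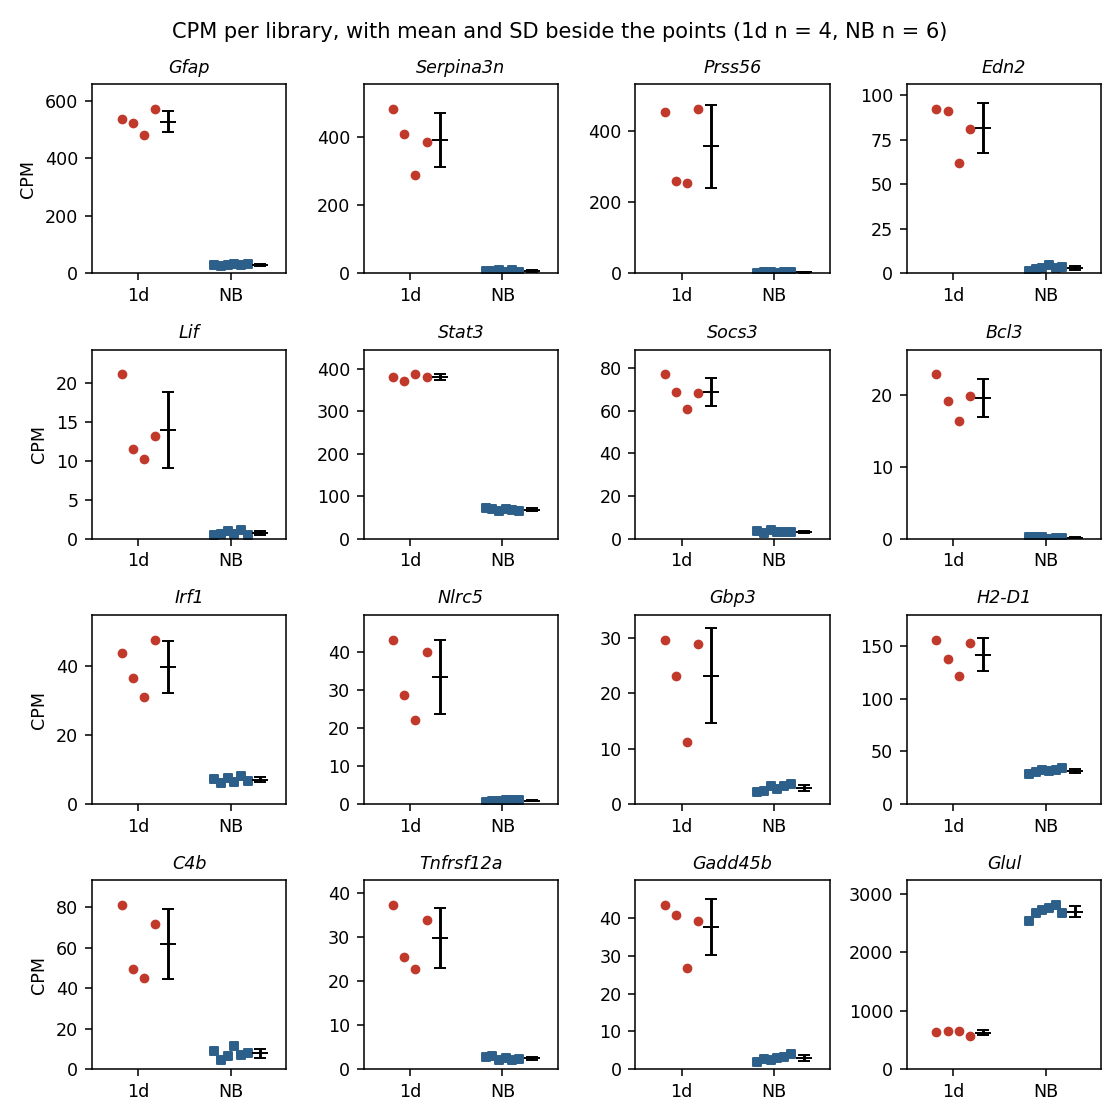
CPM of 16 genes in each library (y axis, linear from 0), 1d left of NB, with the mean and SD beside the points. In 15 of the panels every 1d point lies above every NB point, and in the Glul panel every 1d point lies below them. Over all genes, 16.3% lay all above and 18.1% all below. Prss56, Serpina3n, Edn2, Bcl3, Nlrc5 and Glul were named by a rule that required no overlap, so for them it is no result.

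Among other genes with the largest rises were Lad1, a protein of basement membrane anchoring filaments, and Tnnt2, cardiac troponin T. Lad1 was at 52.8, 62.1, 57.8 and 48.8 CPM in 1d and 0.714 to 1.84 CPM (median 1.35) in NB (4.98 ± 0.18), and Tnnt2 at 63.6, 67.1, 58.8 and 55.7 CPM in 1d and 1.32 to 3.03 CPM (median 1.73) in NB (4.73 ± 0.18). The named genes with the largest falls were Hdc, the histidine decarboxylase that makes histamine, Glb1l3, a beta-galactosidase relative, Fndc1 and Glul. Hdc was at 2.05, 1.89, 2.18 and 0.745 CPM in 1d and 11.2 to 22.9 CPM (median 21.2) in NB (-3.10 ± 0.23, adjusted p = 2.11e-09). Glb1l3 was at 0.932, 1.79, 3.49 and 1.16 CPM in 1d and 11.2 to 32.9 CPM (median 15.3) in NB (-3.02 ± 0.28), and Fndc1 at 20.4, 37.2, 66.5 and 25.1 CPM in 1d and 126 to 202 CPM (median 155) in NB (-2.19 ± 0.21). The rule that named these genes took only genes whose groups did not overlap, so their lack of overlap is no result. Long noncoding RNA genes, by RefSeq biotype, fell more often than they rose: of 814 tested, 350 were lower and 70 higher, against 3708 lower and 3726 higher of 13736 protein-coding genes. Under library totals 267 of the noncoding genes were lower and 125 higher.

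The interleukin-6 family signals through the shared receptor IL6ST and STAT3, and its leukemia inhibitory factor, made by Müller glia, is known to protect photoreceptors. Lif was at 21.2, 11.6, 10.2 and 13.2 CPM in 1d and 0.428 to 1.11 CPM (median 0.653) in NB (3.55 ± 0.19, adjusted p = 2.15e-11), and 6 of the 8 listed ligands were not in the tested set. Of 11 receptors and transducers 6 rose and 0 fell, with 1 lower without 1d 3. The receptor genes Osmr and Il6ra rose most. Osmr was at 115, 102, 92.0 and 93.0 CPM in 1d and 6.44 to 10.7 CPM (median 9.26) in NB (3.42 ± 0.11), and Il6ra at 8.85, 5.36, 5.67 and 8.77 CPM in 1d and 0.107 to 0.618 CPM (median 0.495) in NB (3.01 ± 0.19). Il6st was at 327, 324, 314 and 316 CPM in 1d and 131 to 145 CPM (median 138) in NB (1.21 ± 0.04, adjusted p = 5.37e-14). Stat3 was at 381, 371, 387 and 382 CPM in 1d and 64.2 to 72.6 CPM (median 68.2) in NB (2.48 ± 0.06, adjusted p = 1.19e-15), and its 1d values lay within a narrow band. Lifr, the receptor of LIF, at 71.8, 80.6, 91.4 and 80.0 CPM in 1d and 81.0 to 94.4 CPM (median 86.2) in NB did not pass the test, nor did 4 others of the list.

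Of 12 known targets of STAT3, feedback inhibitors included, 11 rose and 0 fell, with a median of 1.74. Socs3, which blocks IL6ST signalling, was at 77.0, 68.9, 60.9 and 68.3 CPM in 1d and 2.69 to 4.06 CPM (median 3.17) in NB (4.20 ± 0.12, adjusted p = 2.12e-15). Bcl3, a nuclear partner of NF-kappaB, was read at 22.9, 19.2, 16.4 and 19.9 CPM in 1d, against 0 to 0.199 CPM (median 0.157) in NB (4.99 ± 0.14), and was 1 of 3 genes under 0.5 CPM in every NB library and over 5 CPM in every 1d library. Cebpd, a factor of the acute phase response, was at 82.8, 84.4, 79.6 and 93.4 CPM in 1d and 2.93 to 5.99 CPM (median 3.77) in NB (4.28 ± 0.14). Junb and Myc changed by 2.63 ± 0.35 and 2.52 ± 0.24, and the cytokine-induced feedback gene Cish by 1.58 ± 0.08. The letters TTCNNNGAA, the half-site pair bound by STAT proteins, were found in 2 of 9 windows of this list (22.2%) and in 3 of 18 gliosis windows (16.7%), but more often in 4 of 8 GTPase (50%) and 7 of 22 antiviral windows (31.8%) of the interferon-linked lists below, against 770 of 11626 tested genes (6.62%). The windows of Socs3 (GRCm38.p6, chr11:117969317-117969616, minus strand) and of Prss56 (chr1:87183064-87183363, plus strand) are shown, the second for its rank, with the match in capitals. TTCNNNGAA reads the same on both strands, and its bases can also belong to a match of the interferon-stimulated response element.
Socs3: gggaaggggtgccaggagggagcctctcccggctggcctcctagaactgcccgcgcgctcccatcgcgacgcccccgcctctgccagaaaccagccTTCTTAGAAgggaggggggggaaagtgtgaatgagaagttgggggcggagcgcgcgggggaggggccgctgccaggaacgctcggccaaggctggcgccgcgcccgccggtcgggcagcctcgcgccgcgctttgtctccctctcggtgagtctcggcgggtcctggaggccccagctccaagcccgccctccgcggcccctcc
Prss56: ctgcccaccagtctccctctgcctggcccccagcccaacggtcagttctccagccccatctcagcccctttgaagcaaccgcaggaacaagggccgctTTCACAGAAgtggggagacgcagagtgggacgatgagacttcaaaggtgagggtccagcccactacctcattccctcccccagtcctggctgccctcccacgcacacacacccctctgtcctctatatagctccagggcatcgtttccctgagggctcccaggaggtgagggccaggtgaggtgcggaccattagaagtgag

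Endothelin 2, which stressed photoreceptors release onto Müller glia, and its receptor rose together. Edn2 was at 92.1, 91.2, 61.7 and 80.7 CPM in 1d and 1.07 to 4.68 CPM (median 3.11) in NB, 27.1-fold higher in the mean (4.63 ± 0.24, adjusted p = 1.09e-11). Ednrb, the glial receptor gene, was at 59.1, 46.7, 39.6 and 52.4 CPM in 1d and 6.89 to 10.4 CPM (median 8.55) in NB (2.47 ± 0.12, adjusted p = 4.17e-12). Of the 7 endothelin genes 4 rose and 0 fell. Of 17 growth factor and receptor genes 9 rose and 1 fell. Fgf2, a survival factor of photoreceptors, was at 62.8, 62.2, 54.3 and 61.5 CPM in 1d and 17.2 to 20.9 CPM (median 18.1) in NB (1.68 ± 0.09, adjusted p = 1.23e-11), and its receptor gene Fgfr1 changed by 0.84 ± 0.10. Bdnf and Tgfb2 changed by 1.06 ± 0.11 and 1.07 ± 0.07, and pleiotrophin (Ptn) fell by 0.54.

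Of 22 AP-1 and immediate early genes 13 rose and 0 fell. Fosl1 was at 12.4, 8.73, 10.03 and 8.53 CPM in 1d and 0 to 0.0918 CPM (median 0.0166) in NB (4.29 ± 0.13, adjusted p = 8.36e-15), with 0 reads in some NB libraries. Jun, Maff and the RNA decay gene Zfp36 changed by 1.35 ± 0.08, 2.19 ± 0.21 and 2.40 ± 0.21. Fos and Egr1, which respond within minutes to handling as well as to injury, ranged widely within both groups and did not pass the test. Fos was at 68.0, 85.1, 149 and 142 CPM in 1d and 10.5 to 156 CPM (median 67.1) in NB, and Egr1 at 140.5, 138, 288 and 258 CPM in 1d and 9.78 to 315 CPM (median 130.3) in NB. Of 18 NF-kappaB genes 14 rose and 2 fell, or 15 and 1 under library totals. The non-canonical subunit genes Nfkb2 and Relb changed by 2.80 ± 0.13 and 2.80 ± 0.13, the receptor gene Tnfrsf1a by 2.32 ± 0.11, and Rela by 0.83 ± 0.07. Tnfaip3, the ubiquitin editor that restrains NF-kappaB, fell, with 107, 143, 188 and 132 CPM in 1d and 381 to 460.3 CPM (median 417) in NB (-1.58 ± 0.10, adjusted p = 2.29e-10), and was highest in 1d 3 and lowest in 1d 1, the order that Gnat1 showed.

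Interferon-linked genes rose in each of 4 lists. Of 22 sensors, receptors and factors 16 rose and 3 fell. Stat2 and Irf9, partners in interferon signalling, changed by 1.63 ± 0.07 and 2.20 ± 0.10. Irf1 was at 43.6, 36.3, 31.0 and 47.5 CPM in 1d and 6.14 to 8.09 CPM (median 6.81) in NB (2.41 ± 0.10, adjusted p = 6.42e-13), and Irf8, a factor of myeloid cells, at 15.7, 14.7, 12.2 and 21.4 CPM in 1d and 0.971 to 2.03 CPM (median 1.11) in NB (3.18 ± 0.17). The RIG-I gene Ddx58 changed by 2.59 ± 0.18 and the feedback protease gene Usp18 by 3.36 ± 0.30. The members that fell were Ifngr1 (-0.46), Irf3 (-0.34) and Mavs (-0.34). No interferon gene of the list was among the genes tested.

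All 27 tested antiviral effector genes rose, with a median of 1.70, and all 12 guanylate-binding and IRG GTPase genes, with a median of 2.38. Oasl2 was at 54.6, 45.2, 27.3 and 62.6 CPM in 1d and 6.39 to 8.50 CPM (median 7.02) in NB (2.56 ± 0.24), and Bst2, tetherin, at 19.5, 16.1, 10.99 and 22.1 CPM in 1d and 1.06 to 3.11 CPM (median 1.69) in NB (2.94 ± 0.25). Rsad2, viperin, was at 16.5, 6.35, 4.71 and 16.8 CPM in 1d and 0.393 to 1.28 CPM (median 0.743) in NB (3.07 ± 0.30), with 1d 1 and 1d 4 above 1d 2 and 1d 3. Gbp3 was at 29.6, 23.02, 11.2 and 28.8 CPM in 1d and 2.14 to 3.53 CPM (median 3.01) in NB (2.72 ± 0.24, adjusted p = 1.65e-08). Irgm1, which guards host membranes from the other GTPases, was at 13.4, 11.3, 7.33 and 17.8 CPM in 1d and 1.13 to 1.66 CPM (median 1.25) in NB (2.76 ± 0.20, adjusted p = 1.72e-09). Isg15, a ubiquitin-like protein, changed by 1.52 ± 0.29 from low levels, with 5.13, 2.58, 2.18 and 5.46 CPM in 1d and 0.697 to 1.18 CPM (median 0.933) in NB.

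Promoters of these genes are shown for the core of the interferon-stimulated response element, a tandem of GAAA parted by 2 bases. On either strand it was found in 8 of 8 windows of the GTPase genes tested (100%), in 10 of 22 of the antiviral effectors (45.5%) and in 5 of 16 of the class I genes (31.2%), against 327 of 11626 tested genes (2.81%). Paralogs among the GTPases share ancestry and so are not separate observations. The windows are RefSeq GRCm38.p6, with the match, or its reverse complement, in capitals: Gbp3 at chr3:142559794-142560093 on the plus strand, Irgm1 at chr11:48871371-48871670 on the minus strand and Isg15 at chr4:156200769-156201068 on the minus strand. Matches that overlap each other run together as 1 stretch of capitals.
Gbp3: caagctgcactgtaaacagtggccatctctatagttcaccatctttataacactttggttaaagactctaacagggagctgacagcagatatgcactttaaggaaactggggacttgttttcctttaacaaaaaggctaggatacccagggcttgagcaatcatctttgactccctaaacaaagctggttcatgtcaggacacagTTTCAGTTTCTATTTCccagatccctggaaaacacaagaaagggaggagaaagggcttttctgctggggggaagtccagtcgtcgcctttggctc
Irgm1: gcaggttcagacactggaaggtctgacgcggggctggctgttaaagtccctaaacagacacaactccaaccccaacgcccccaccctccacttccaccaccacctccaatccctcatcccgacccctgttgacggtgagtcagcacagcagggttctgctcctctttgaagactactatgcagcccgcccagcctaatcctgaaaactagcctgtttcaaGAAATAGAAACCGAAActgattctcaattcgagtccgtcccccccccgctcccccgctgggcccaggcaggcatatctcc
Isg15: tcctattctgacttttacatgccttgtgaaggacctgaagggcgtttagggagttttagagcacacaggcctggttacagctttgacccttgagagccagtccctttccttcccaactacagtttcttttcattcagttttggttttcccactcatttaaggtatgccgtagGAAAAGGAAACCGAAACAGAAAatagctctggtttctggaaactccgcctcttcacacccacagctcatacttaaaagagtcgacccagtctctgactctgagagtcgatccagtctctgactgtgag

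All 19 tested genes of class I presentation and the immunoproteasome rose, with a median of 1.49, while of 6 class II genes 1, Cd74, rose. That class II count was 2 under library totals, with the lens covariate and without NB B3, NB B4 or 1d 3. It was 0 without 1d 4, with NB of the same depth set, the depth set as a term and the replicate block, and in the same libraries without the block. Nlrc5, the transactivator of class I genes, was at 43.2, 28.6, 22.2 and 39.8 CPM in 1d and 0.4996 to 1.07 CPM (median 0.891) in NB (4.60 ± 0.18, adjusted p = 2.61e-13). The heavy chain gene H2-D1 was at 156, 138, 122 and 153 CPM in 1d and 28.8 to 34.2 CPM (median 31.9) in NB (2.14 ± 0.07, adjusted p = 3.91e-14). The H2 genes are near-identical copies, so reads may be split among them. The peptide pump gene Tap1 was at 37.6, 26.2, 15.8 and 35.3 CPM in 1d and 2.62 to 3.76 CPM (median 3.17) in NB (2.94 ± 0.18), and the light chain gene B2m and the subunit gene Psmb8 changed by 1.73 ± 0.15 and 1.96 ± 0.17. The class II gene H2-Ab1 stood at 1.398, 1.39, 1.13 and 1.90 CPM in 1d and 0.607 to 1.52 CPM (median 0.841) in NB, and Cd74 at 2.05, 1.89, 1.74 and 2.81 CPM in 1d and 0.365 to 1.94 CPM (median 1.13) in NB, with overlap (0.74 ± 0.24, adjusted p = 0.0134). The call of Cd74 was lost without 1d 4 (adjusted p = 0.0565) and in the other settings with a count of 0 (adjusted p = 0.0673 to 0.0781).

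Of 11 homeostatic microglia genes 6 fell, 0 rose and 5 did not pass the test, all from low levels. These counts depended on the setting. Library totals, edgeR, DESeq2, the lens covariate and leaving out 1d 2 or 1d 3 each gave 2 higher, leaving out NB B3 or NB B4 gave 1 higher, and the replicate block, like the same libraries without it, gave 3 lower. P2ry12, the purine receptor of resting microglia, was at 1.398, 0.397, 0.698 and 0.662 CPM in 1d and 2.49 to 3.75 CPM (median 2.85) in NB (-1.47 ± 0.18, adjusted p = 9.64e-07), and Siglech and Gpr34 changed by -0.999 ± 0.20 and -0.69 ± 0.15. Cx3cr1, a marker of the same cells, was at 6.43, 4.86, 4.80 and 6.70 CPM in 1d and 3.29 to 5.46 CPM (median 4.50) in NB and did not pass the test. Of 25 activated phagocyte genes 22 rose and 0 fell. The lectin gene Lgals3 was at 61.7, 46.9, 39.4 and 56.2 CPM in 1d and 4.71 to 13.4 CPM (median 9.52) in NB (2.48 ± 0.24), Cd68, a lysosomal protein, at 8.95, 6.95, 7.76 and 9.85 CPM in 1d and 1.147 to 2.25 CPM (median 1.93) in NB (1.94 ± 0.13, adjusted p = 4.93e-10), and Msr1, a scavenger receptor gene, changed by 1.81 ± 0.23. Axl, a receptor for dead cells, changed by 1.90 ± 0.11, and Pros1, the gene of protein S, a ligand of receptors of that family, by 1.94 ± 0.08. Trem2 was 1 of 3 members that did not pass the test. Several of the list's genes, Lgals3, Cd63, Cd9, Spp1 and Gpnmb among them, are also made by glia or pigment cells. Of 8 T cell and 9 neutrophil markers 1 each was in the tested set.

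Of 15 complement genes 10 rose and 2 fell, with 0 lower under library totals or without 1d 1, and 1 lower without NB B2, NB B4, 1d 2 or 1d 4. C4b was at 81.0, 49.4, 45.2 and 71.4 CPM in 1d and 4.75 to 11.5 CPM (median 7.54) in NB (2.90 ± 0.21), C3 at 21.9, 11.7, 8.11 and 18.4 CPM in 1d and 1.23 to 2.07 CPM (median 1.77) in NB (2.71 ± 0.20), and the C1 inhibitor gene Serping1 at 57.9, 47.7, 41.9 and 60.0 CPM in 1d and 4.81 to 9.68 CPM (median 7.59) in NB (2.70 ± 0.15, adjusted p = 2.98e-11). The C1q genes of microglia changed less, C1qb by 0.89 ± 0.17 with overlap. Of 12 chemokine, cytokine and adhesion genes 10 rose and 0 fell. Ccl2, which draws monocytes, was at 4.19, 1.89, 1.31 and 4.47 CPM in 1d and 0 to 0.0918 CPM (median 0) in NB (2.61 ± 0.22), with 1d 1 and 1d 4 again above the others. Cxcl10 was at 9.79, 3.57, 4.27 and 8.03 CPM in 1d and 0 to 0.664 CPM (median 0.0900) in NB (3.34 ± 0.27). Csf1, a growth factor of macrophages, was at 30.3, 23.6, 23.9 and 30.3 CPM in 1d and 4.25 to 6.84 CPM (median 5.29) in NB (2.24 ± 0.11, adjusted p = 1.04e-11), while Il34, the other ligand of its receptor, at 9.13, 9.72, 7.76 and 8.36 CPM in 1d and 6.35 to 8.88 CPM (median 7.41) in NB, did not pass the test. The adhesion genes Icam1 and Vcam1 changed by 2.57 ± 0.16 and 1.68 ± 0.14.

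**Figure D4:**
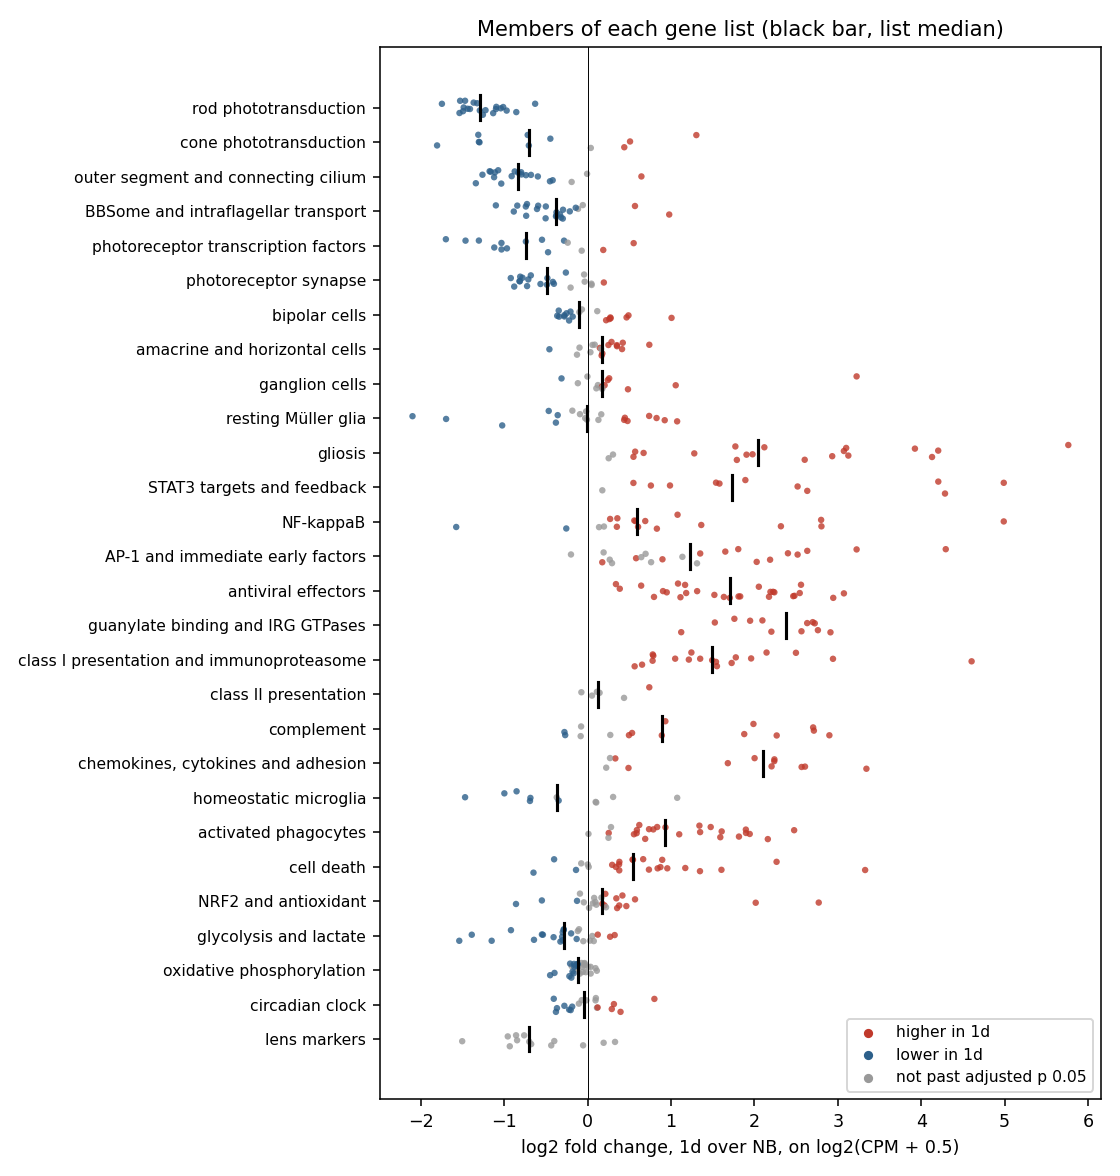
Log2 fold change of 1d over NB (x axis) for the tested members of 28 gene lists, with 1 point a gene, red for higher in 1d, blue for lower, grey for not past the test, and a black bar at the list median. The medians run from -1.29 for rod phototransduction to 2.38 for guanylate-binding and IRG GTPases.

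Of 24 cell death genes 18 rose and 3 fell. The receptor genes rose most. Tnfrsf12a, the TWEAK receptor, was at 37.3, 25.4, 22.9 and 33.8 CPM in 1d and 2.07 to 2.99 CPM (median 2.42) in NB (3.33 ± 0.13, adjusted p = 1.40e-13), and Fas at 5.22, 4.07, 4.45 and 4.14 CPM in 1d and 0.214 to 0.971 CPM (median 0.457) in NB (2.27 ± 0.20). Ripk1, a kinase of necroptosis and survival signalling, was at 34.7, 33.3, 32.3 and 35.8 CPM in 1d and 9.36 to 12.6 CPM (median 10.7) in NB (1.604 ± 0.09, adjusted p = 4.43e-11), and Casp8 and Bid changed by 1.35 ± 0.19 and 1.17 ± 0.15. The survival genes Mcl1 and Bcl2 moved in opposite directions, by 0.73 ± 0.06 and -0.65 ± 0.06. Of 12 p53 and growth arrest genes 5 rose, 1 fell and 6 did not pass the test, while 10 rose and 1 fell under library totals and 2 fell without NB B4. Gadd45b was at 43.4, 40.9, 26.9 and 39.1 CPM in 1d and 1.93 to 4.17 CPM (median 2.78) in NB (3.48 ± 0.15, adjusted p = 7.26e-13) and Cdkn1a at 12.4, 9.92, 10.6 and 13.3 CPM in 1d and 1.68 to 3.103 CPM (median 2.07) in NB (2.17 ± 0.13), while Mdm2, a direct target of p53, stood at 65.3, 74.0, 79.1 and 71.4 CPM in 1d and 64.6 to 76.6 CPM (median 74.2) in NB. Of 17 cell cycle genes 8 rose and 2 fell, or 11 and 1 under library totals. Ccnd1, cyclin D1, changed by 1.34 ± 0.14. The mitosis gene Mki67, at 1.03, 0, 0.0872 and 1.16 CPM in 1d and 0.0332 to 1.45 CPM (median 0.788) in NB, did not pass the test.

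Genes linked to retinal progenitors and Notch signalling gave 16 rises, 3 falls and 11 genes not past the test, of 30. Neurog2 was at 10.5, 8.14, 8.11 and 10.4 CPM in 1d and 1.89 to 2.77 CPM (median 2.14) in NB (1.85 ± 0.14, adjusted p = 3.20e-09). Hey2 and Sox11 changed by 1.03 ± 0.07 and 0.97 ± 0.13. The ligand gene Jag1 was at 74.2, 82.4, 109.7 and 92.5 CPM in 1d and 178 to 214 CPM (median 199) in NB (-1.14 ± 0.08, adjusted p = 7.67e-10), and the Notch target gene Hes5 changed by -1.10 ± 0.14.

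Stress lists were mixed. Of 23 NRF2 and antioxidant genes 11 rose and 3 fell, while 17 rose and 2 fell under library totals. Hmox1, heme oxygenase, was at 34.2, 28.2, 17.1 and 30.5 CPM in 1d and 2.38 to 3.98 CPM (median 3.74) in NB (2.77 ± 0.17, adjusted p = 1.39e-10), and Osgin1 changed by 2.01 ± 0.19. Nqo1 and Me1, also NRF2 targets, fell by 0.55 and 0.86. Of 13 metal and iron handling genes 5 rose, 2 fell and 6 did not pass the test, with a median of 0.10. Under library totals 8 rose and 0 fell. With edgeR, DESeq2 or any 1 of NB A1, A2, B1, B2, B3 and 1d 3 left out 1 fell. Among those that rose were the metallothionein genes Mt1 and Mt2. Mt1 was at 149, 103, 93.6 and 144 CPM in 1d and 20.6 to 30.2 CPM (median 25.02) in NB (2.24 ± 0.12), and Mt2 at 109.7, 77.9, 68.1 and 103 CPM in 1d and 8.89 to 13.7 CPM (median 10.9) in NB (2.96 ± 0.13). Ftl1, the ferritin light chain gene, changed by 0.97 ± 0.08 and Trf, transferrin, by 1.57 ± 0.17. Of 17 heat shock genes 9 rose and 3 fell, beside 24% and 27.5% of all genes, with the cochaperone gene Bag3 at 1.58 ± 0.13 and the inducible Hspa1b at -0.76 ± 0.14. Of 26 genes of the unfolded protein and integrated stress responses 15 rose and 2 fell (19 and 0 under library totals, and 1 lower without 1d 4), the largest rise being Sdf2l1 (0.95 ± 0.13), and Ddit3, CHOP, changed by 0.65 ± 0.08.

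Photoreceptors live on aerobic glycolysis, and 16 of 25 glycolysis and lactate genes fell, with 3 rises, while under library totals 11 fell and 6 rose. Nxnl1, whose short product is the rod-derived cone viability factor, was at 100.4, 147, 189 and 111 CPM in 1d and 332 to 421 CPM (median 401) in NB (-1.54 ± 0.12, adjusted p = 4.70e-09). Pfkfb2, Hk2 and the lactate carrier gene Slc16a1 changed by -1.39 ± 0.09, -1.15 ± 0.10 and -0.92 ± 0.07. Hk1, the other main hexokinase, rose by 0.32 ± 0.07. Of 28 nuclear oxidative phosphorylation genes 12 fell and 0 rose with the authors' scaling, and 2 fell and 8 rose under library totals. Of 13 mitochondrially encoded genes 4 fell, near the 27.5% of all genes that fell, and 0 passed in either direction under library totals. Of 20 cholesterol genes 10 fell and 3 rose, against 1 lower and 8 higher under library totals, and 6 were lower without 1d 4. Lipid carriers changed in both directions, with the lipid droplet gene Plin2 at 1.61 ± 0.13, the efflux pump genes Abca1 at 0.92 ± 0.09 and Abcg1 at -0.81 ± 0.06, and Elovl2 and Elovl4, which lengthen the fatty acids of outer segments, at -0.91 ± 0.07 and -0.77 ± 0.07.

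Chromatin genes changed in both directions. Of 13 DNA methylation genes 3 rose and 8 fell, and 5 rose and 3 fell under library totals. Uhrf1, which guides maintenance methylation, was at 2.98, 2.38, 2.01 and 2.32 CPM in 1d and 0.184 to 0.535 CPM (median 0.441) in NB (1.72 ± 0.22), and the demethylase genes Tet2 and Tet3 changed by -0.50 ± 0.05 and -0.51 ± 0.08. Of 17 histone acetylation genes 4 rose and 6 fell, beside 24% and 27.5% of all genes, while under library totals the balance turned to 9 higher and 3 lower, with Hdac9 at -0.57 ± 0.05 and Hdac7 at 0.52 ± 0.08. Among 14 genes of histone methylation and remodelling the largest change was Kmt2d (-0.71 ± 0.09). Of 18 clock genes 5 rose and 7 fell, beside 24% and 27.5% of all genes, the largest change being Bhlhe40 (0.80 ± 0.07). Under library totals 7 rose and 3 fell, while 3 rose without 1d 1. The hour of collection is not in the labels.

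Markers of tissue next to the retina were read in all libraries. Of 15 RPE markers 2 rose and 2 fell (1 lower under library totals or without NB B2, NB B4, 1d 3 or 1d 4), with a summed level of 501 to 591 CPM in 1d, against 449 to 677 CPM in NB, and their part in other results was not tested. Rpe65, the isomerase of the visual cycle, was at 20.3, 23.02, 22.6 and 11.6 CPM in 1d and 56.1 to 69.9 CPM (median 65.2) in NB (-1.76 ± 0.18, adjusted p = 1.07e-07), while Rgr, another RPE gene, stood at 178, 199.9, 169 and 125 CPM in 1d and 112 to 185 CPM (median 149.8) in NB, overlapping. Cdh3, the cadherin of RPE cells, rose by 1.47 ± 0.18. Of 10 endothelial markers 6 rose and 0 fell, but 3 rose without 1d 3 and 1 was lower without 1d 4 or with the depth set as a term. The list includes Kdr, the VEGF receptor gene, which retinal neurons also make, at 463, 446, 431 and 462 CPM in 1d and 241 to 265 CPM (median 249) in NB (0.85 ± 0.05). Of 4 red blood cell markers 3 rose, with sums of 12.3 to 35.1 CPM in 1d, against 7.99 to 15.5 CPM in NB. Genes that lens also makes, such as Cryab, at 1916, 233, 82.5 and 1382 CPM in 1d and 49.3 to 1189.8 CPM (median 1105) in NB, and Col4a1, at 651, 125, 117 and 424 CPM in 1d and 47.0 to 315 CPM (median 262) in NB, followed the lens sum by library and did not pass the test.

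The 1d libraries differed among themselves in an order that many genes shared. Gnat1 was lowest in 1d 1 and 1d 4 and highest in 1d 3, with the values given above. The gliosis genes summed to 3694, 3044, 2575 and 3319 CPM in 1d, against 445 to 616 CPM in NB, and the guanylate-binding and IRG genes to 197, 146, 95.8 and 203 CPM in 1d, against 23.7 to 30.3 CPM in NB. So 1d 1 and 1d 4 were lowest for Gnat1 and highest for gliosis and GTPase genes, and 1d 3 was the reverse. The same pair, 1d 1 and 1d 4, had the highest lens sums, 11208 and 7500.2 CPM, and the part of lens tissue in this order was not tested. With the lens sum as a covariate, 9141 genes were called in place of 8719.

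Against later and earlier retinas, the 1d group is set here beside 3d (4 libraries) and 6h (3 libraries), which share no library with it, in the same model. Against 3d, 3626 genes changed (21.4%), with 1969 higher (11.6%) and 1657 lower (9.79%) in 1d. Prss56 averaged 357 ± 117 CPM in 1d and 2.35 ± 0.722 CPM in 3d (SD, n = 4 each), a log2 fold change of 6.95 ± 0.21 (adjusted p = 3.93e-14). Glul averaged 629 ± 35.6 CPM in 1d and 2703 ± 153 CPM in 3d (-2.10 ± 0.07, adjusted p = 4.88e-14), and the 3d mean lay within the NB range given above. Tnnt2 and Socs3 changed by 2.60 ± 0.20 and 2.28 ± 0.13 against 3d, and Atf3 by 2.41 ± 0.14. Lower in 1d than in 3d were Acp5, the phosphatase of osteoclasts and macrophages, with 0.174 ± 0.188 CPM in 1d and 7.59 ± 2.16 CPM in 3d (-3.58 ± 0.25), the macrophage gene Adgre1 (-2.10 ± 0.27) and Mki67 (-2.35 ± 0.43).

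By list, 17 of 21 rod genes were lower and 0 higher in 1d than in 3d, 13 of 20 gliosis genes and 9 of 12 STAT3 targets were higher and 0 lower, and 15 of 25 activated phagocyte genes were lower and 4 higher. Of 11 homeostatic microglia genes 9 were lower and 0 higher in 1d than in 3d. Gnat1 averaged 5041 ± 1345 CPM in 1d and 7471 ± 359 CPM in 3d (-0.60 ± 0.16, adjusted p = 0.00868). Opn1sw averaged 123 ± 56.4 CPM in 1d and 329.7 ± 21.3 CPM in 3d (-1.52 ± 0.20, adjusted p = 1.24e-05). C4b, at 61.8 ± 17.2 CPM in 1d and 74.5 ± 7.54 CPM in 3d, did not pass the test between those groups (-0.31 ± 0.23, adjusted p = 0.388).

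Against 6h, 5932 genes changed (35%), with 2963 higher (17.5%) and 2969 lower (17.5%) in 1d, while under library totals 5605 were higher and 1836 lower. The 6h libraries are all of the deeper set and the 1d libraries all of the shallower one, so depth and time cannot be told apart between them except through NB, which holds both, and with the depth set as a term 2427 genes were called. By list, 26 of 27 antiviral effectors and 17 of 19 class I genes were higher in 1d than in 6h and 0 lower, while of 22 AP-1 and immediate early genes 2 were higher and 6 lower. Nlrc5 averaged 33.4 ± 9.76 CPM in 1d (n = 4) and 3.63 ± 0.397 CPM in 6h (n = 3), with a log2 fold change of 2.996 ± 0.22 (adjusted p = 4.14e-09). Prss56 averaged 357 ± 117 CPM in 1d and 8.28 ± 1.49 CPM in 6h (5.30 ± 0.22). Edn2 averaged 81.4 ± 14.1 CPM in 1d and 5.82 ± 1.601 CPM in 6h (3.71 ± 0.28, adjusted p = 6.92e-09). Ccl2, in contrast, averaged 2.96 ± 1.6005 CPM in 1d and 3.103 ± 0.387 CPM in 6h, and Hmox1 27.5 ± 7.37 CPM in 1d and 32.6 ± 8.01 CPM in 6h, and neither passed the test (adjusted p = 0.641 and 0.352). Arg2, Nt5e and Kcnj13 had the largest named falls against 6h besides Glb1l3, at -1.96 ± 0.16, -2.27 ± 0.12 and -2.04 ± 0.25, and Kcnj13 is an RPE channel gene.

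**Figure D5:**
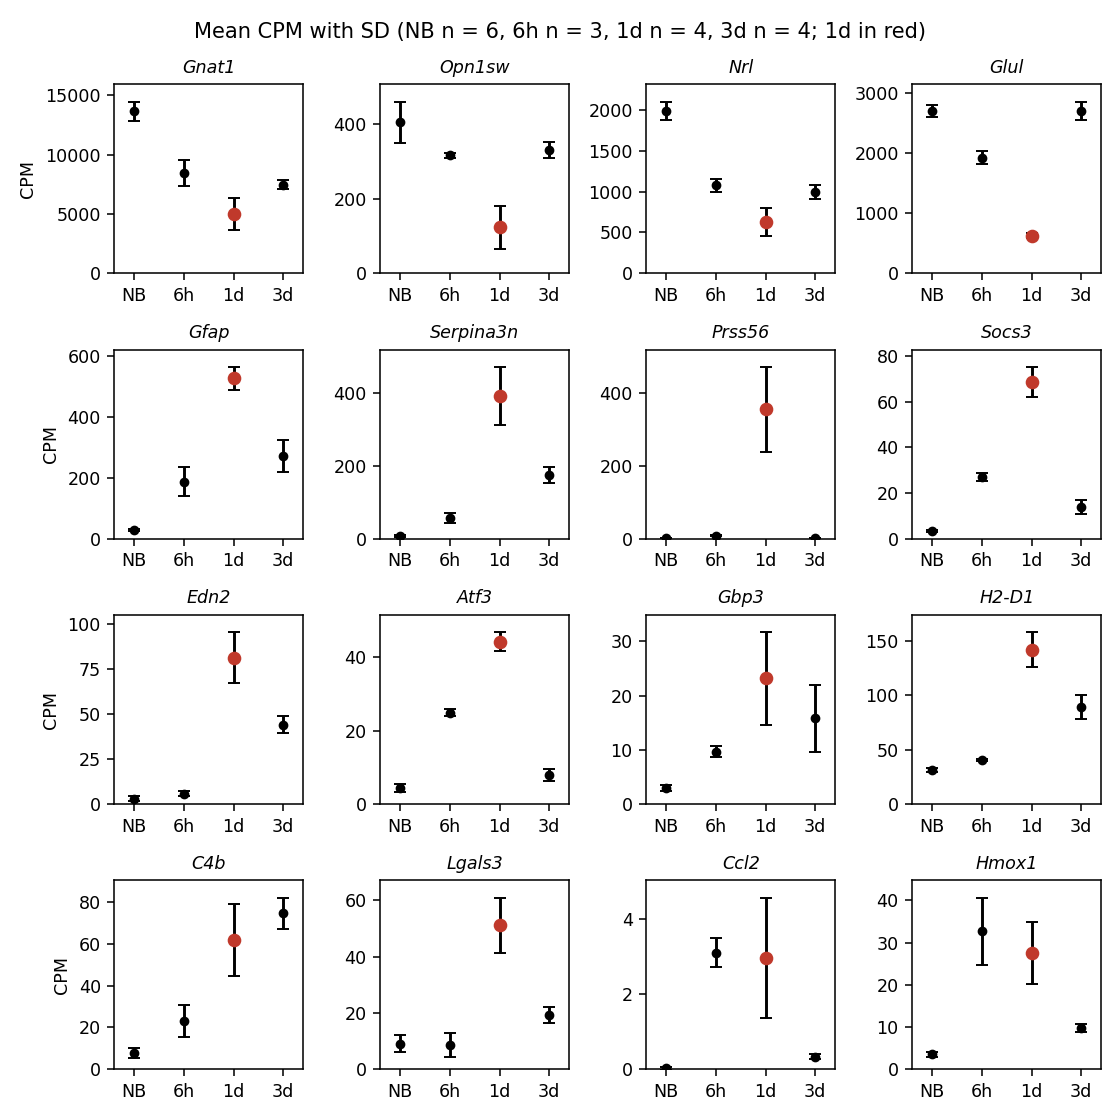
Mean CPM with SD (y axis, linear from 0) of 16 genes in the NB, 6h, 1d and 3d groups, with 1d in red. Gnat1, Nrl, Opn1sw and Glul are lowest at 1d, and Prss56 stands at 357 CPM at 1d, with under 10 CPM in each other group.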

How the data were processed

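Retina RNA libraries number 17 in the deposited table, of which 4 libraries of the 1d group and 6 of the NB group are described here, with 4 of 3d and 3 of 6h in the same fit. Libraries were TruSeq stranded mRNA, per the labels' protocols. Trimmomatic, STAR, edgeR and the build GRCm38 are named in the submitters' processing notes, without versions, and the role of each is not given in the sources used here. The deposited values are CPM per gene, a signal on the effective library size the authors used, and their low values are whole multiples of what 1 read is worth, so that 100% of values came out as whole reads within 0.01. The authors' own fold changes and p-values were not used. NB columns match the group and not a single sample, and the letters A and B were given here to columns with and without a point before the number. Column names, not values, set the groups. Gene names came from the Ensembl ID table supplied with the files, and 6 IDs had no symbol.

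Genes with at least 1 CPM in at least 3 libraries were kept (16926 of 16930). The main test was limma 3.58.1 (trend) in R 4.3.3, run on log2(CPM + 0.5), with all 17 libraries sharing the estimate of spread, no covariate, and Benjamini-Hochberg adjustment at 0.05 over all genes. A fold change on this scale understates the change of low genes. The code was tested on simulated data. edgeR 4.0.16 and DESeq2 1.42.0 were run on the recovered reads as alternatives and called 8599 and 8396 genes between 1d and NB. Other alternatives were pseudocounts of 0.1 and 2, no filter, library totals, TMM factors, a 2-fold minimum, 1d and NB alone, NB libraries of the same depth set, the depth set as a term, a replicate block, and each library left out. The lens marker sum as a covariate, and the fit to the libraries of the replicate block without the block, were chosen after seeing the data.

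The gene lists and the members were chosen with earlier results of these data known, so their counts are descriptions, read against the share of all genes called. The rule for named genes took the called genes with the largest log2 fold changes among those whose groups did not overlap and whose higher group averaged at least 2 CPM (also against 3d and 6h), those with the largest change in mean CPM, those under 0.5 CPM in every library of one group and at least 5 CPM in every library of the other, the knockout's genes, and members of the lists. Some genes that met this rule, gene models known only by number among them, are not reported here. Depth ranged from 9.45 to 32.4 M reads (1e6 reads) a library, so a gene under 1 CPM rests on few reads, and p-values measure the spread between mice of one study. Motifs were searched in the first RefSeq window of each gene.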

Additional observations from a re-analysis of the deposited data

Results flagged for a closer look

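Dixon's test at the 95% level, which chance alone passes in about 1 of 20 groups, was applied to the CPM of the named genes within the 1d and within the NB libraries. It singled out a library in 16 of 464 groups (3.45%), 3 in 1d and 13 in NB, and NB A2 was the library in 6 of them. Among the 1d libraries, Fgf2 was lower in 1d 3, at 54.3 CPM, than in the other 1d libraries, at 61.5 to 62.8 CPM. Jun was lower in 1d 2, at 94.5 CPM, than in the other 1d libraries, at 108 to 109 CPM. Rela was lower in 1d 2, at 41.3 CPM, than in the other 1d libraries, at 49.96 to 50.8 CPM. Library NB A2 stood apart from the other NB libraries for Cnga1 (862 CPM, others 775 to 807 CPM), Col4a1 (47.0 CPM, others 227 to 315 CPM), Cxcl10 (0.664 CPM, others 0 to 0.138 CPM), Opn1mw (164 CPM, others 105 to 118 CPM), Pde6a (3516 CPM, others 3136 to 3244 CPM) and Sox9 (12.6 CPM, others 14.8 to 16.02 CPM). Library NB B1 stood apart from the other NB libraries for Hmox1 (2.38 CPM, others 3.42 to 3.98 CPM) and Isl2 (3.09 CPM, others 4.31 to 4.67 CPM). Library NB B2 stood apart from the other NB libraries for C1qb (5.88 CPM, others 3.05 to 3.85 CPM). Library NB B4 stood apart from the other NB libraries for Adamts1 (33.3 CPM, others 24.1 to 27.4 CPM), Bdnf (10.4 CPM, others 6.43 to 7.47 CPM), Maff (1.39 CPM, others 0.214 to 0.622 CPM) and Trem2 (1.18 CPM, others 0.459 to 0.697 CPM). Each gene of these that passed the test between 1d and NB passed it again, in the same direction, with that library left out.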

How the results depend on the processing

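With a 2-fold minimum 376 genes were called between 1d and NB (279 higher, 97 lower). Under library totals 7063 were higher and 2448 lower. The other alternatives gave 6388 to 9141 called genes in place of 8719, and leaving out single libraries 7737 to 8682. Against 3d, leaving out single libraries gave 2830 to 3787 calls in place of 3626. Against 6h it gave 4675 to 6191 in place of 5932, library totals gave 5605 higher and 1836 lower, and the depth set as a term 2427 called (979 higher, 1448 lower). The cause of these shifts was not tested. Same-numbered 1d and NB B libraries, as deviations from group means, correlated at 0.10, 0.09, -0.12 and 0.20, and different numbers at -0.24 to 0.25. For 1d and 3d the same numbers gave -0.32, 0.23, -0.24 and 0.18, and different numbers -0.34 to 0.37. No pairing by replicate number was seen, and so few correlations cannot exclude it. The replicate block gave 6388 calls between 1d and NB, against 6917 for the same libraries without it. Between 1d and 3d it gave 2633, and those libraries were not fitted alone without it.

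Of 213 named genes called between 1d and NB, 209 kept direction and call under every alternative run but the 2-fold minimum, where 107 were still called. The others were Cd74, Cplx3, Isl2 and Mef2d, of which Isl2 missed the threshold under library totals (-0.16), DESeq2 (-0.37) and the 1d and NB libraries alone (-0.31). Many named genes were picked for large changes or small adjusted p in this same test. The 209 of 213 therefore does not measure how calls hold over all genes. The genes whose log2 fold change turned sign had not passed the test. Under library totals these were Aqp4 (0.16), Bsn (0.13), Lifr (0.0559), Rbp3 (0.0154) and Rdh8 (0.0658). DESeq2 gave Aqp4 0.00849 and Cryab 0.0694, edgeR gave Cryab 0.0535, and the lens covariate gave Aqp4 0.00233 and Cryab 0.34. With NB of the same depth set, the depth set as a term, the replicate block and the same libraries without it, Col4a1 was at -0.15 and Mdm2 at -0.0239. With single libraries left out the log2 fold change ran from -0.0320 to 0.0272 for Aqp4, -0.11 to 0.0228 for Bsn, -0.13 to 0.70 for Col4a1, -1.08 to 0.48 for Cryab, -0.00120 to 0.0768 for Ctbp2, -0.0380 to 0.0534 for Mdm2, -0.19 to 0.00876 for Rdh8 and, against 6h, -0.40 to 0.0893 for Ccl2. A gene under 1 CPM rests on few reads, and 1d and 6h libraries share no depth set, which limits that comparison.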
